A study of Mus musculus with 12 samples.

Results

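Of 12 RNA-seq libraries made from mouse hippocampus, 4 held little transthyretin (Ttr) transcript, and they were set against the other 8 to see which transcripts went with it, whatever the genotype. A library was counted as low-Ttr when Ttr made up under 1000 of every 1000000 counts of that library. The class was therefore chosen from a measured level and not from any label, and the Ttr values that chose it are given below as a description. The low-Ttr libraries were 2 of the 3 labelled Kcnip3 KO-5xFAD (replicates 1 and 2), 1 of the 3 labelled 5xFAD (replicate 2), 0 of the 3 labelled Kcnip3 KO and 1 of the 3 labelled WT (replicate 3).

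The study held 4 genotypes of adult mice with 3 libraries each. Kcnip3 KO-5xFAD mice are labelled as Kcnip3 knockouts that carry the 5xFAD transgenes, 5xFAD mice as carrying the transgenes alone, Kcnip3 KO mice as knockouts without them, and WT mice are the controls. The 5xFAD transgenes carry human mutations of familial Alzheimer's disease and are driven by Thy1 sequences, which are active mainly in neurons. Kcnip3 encodes a neuronal calcium-binding protein also known as DREAM or calsenilin. RNA came from the hippocampus of one hemisphere, the other one having gone to proteomics, and was made into libraries with an mRNA kit. The labels do not say whether the 3 libraries of a genotype are 3 animals, so each p-value measures only the spread between these libraries, which may be technical.

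Ttr encodes a carrier of thyroid hormone and retinol. In the brain it is made above all by the epithelium of the choroid plexus, a fringe of tissue that hangs in the ventricles, secretes cerebrospinal fluid and forms the barrier between blood and that fluid. The choroid plexus of the lateral ventricle is attached along the fimbria, at the edge of the hippocampus, so a dissected hippocampus can keep more or less of it.

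The libraries held 7664407 to 11310714 counts, and within a genotype Pearson's r between libraries, across genes, was 0.978 to 0.990. Kcnip3 lay at 67.3 to 85.9 counts per 1000000 counts of the library in Kcnip3 KO-5xFAD and 64.7 to 122 in Kcnip3 KO libraries, against 134 to 144 in 5xFAD and 158 to 165 in WT libraries. Transcript was thus still counted in the libraries labelled as knockouts, most in Kcnip3 KO 3, and the deleted exons are not stated in the sources. Thy1, whose sequences are part of the transgenes, lay at 2634 to 3898 on the same scale in 5 of the 6 libraries labelled with the transgenes and at 765 to 887 in 5 of the 6 labelled without them. It went against the label in the library labelled Kcnip3 KO-5xFAD 2, at 908, and in the library labelled WT 3, at 2322. Both of these were low-Ttr libraries, so the main counts of the class comparison below are also given without them. The numbers of genes with counts (21673 to 23211 in low-Ttr and 22585 to 23499 in high-Ttr libraries) and the shares of mitochondrial counts (3.74% to 5.47% and 3.58% to 5.10%) overlapped.

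Ttr lay at 85.1 counts per 1000000 counts of the library in the library labelled WT 3, 186 in 5xFAD 2, 344 in Kcnip3 KO-5xFAD 1 and 363 in the library labelled Kcnip3 KO-5xFAD 2. The 8 high-Ttr libraries ran from 2947 (Kcnip3 KO 2) through a median of 4089 to 8519 (5xFAD 3). The values nearest the limit of 1000 were thus 363 inside it and 2947 outside it, a ratio of 8.11, and the whole range was 100.1-fold. That the low-Ttr libraries lay below all high-Ttr ones, in every genotype that held both classes, follows from the rule itself. In these bulk samples, fewer choroid plexus cells and less RNA per cell cannot be told apart.

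**Figure D1:**
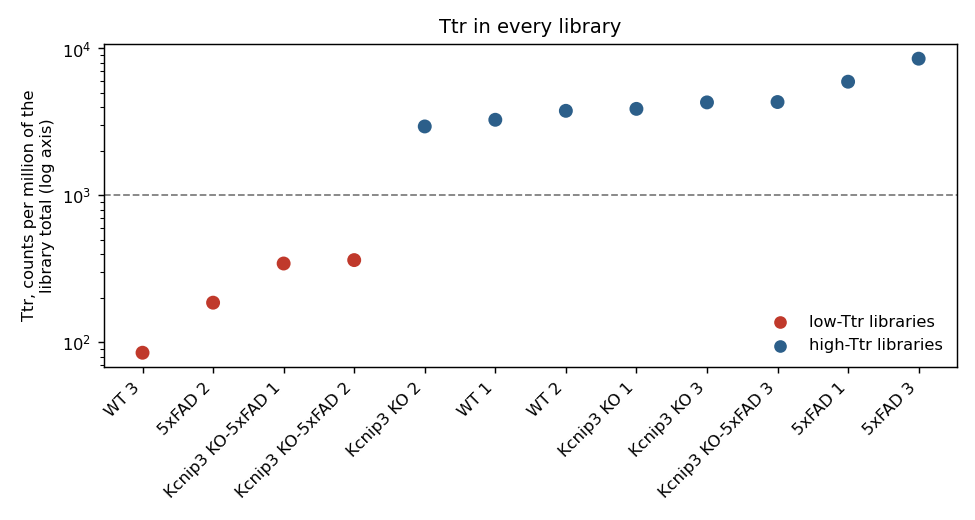
Ttr in each of the 12 libraries, as counts per 1000000 counts of the library on a log axis, with the 4 low-Ttr libraries at the left and the limit of 1000 as a dashed line. The low-Ttr libraries lie between 85.1 and 363 and the high-Ttr libraries between 2947 and 8519, with none between.

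Ttr was then left out, and 15904 genes were fitted with genotype and Ttr class as terms. Levels below are counts per 1000000 counts of a library after TMM scaling (CPM), and fold changes are log2 values of low-Ttr over high-Ttr libraries ± SE. A gene was called when its Benjamini-Hochberg adjusted p in edgeR's quasi-likelihood test was under 0.05. In low-Ttr libraries 71 genes were lower (0.446% of those tested) and 2 were higher (0.0126%), while the median log2 fold change of all genes was 0.02. With both libraries that go against their transgene label left out, the counts were 63 lower and 1 higher. Without 5xFAD 2 they were 39 and 0, and without Kcnip3 KO-5xFAD 3, the only high-Ttr library of its genotype, 47 and 0. Among the 73 called genes (0.459% of those tested), 66 had no overlap between the 4 low-Ttr and 8 high-Ttr libraries, and 7 overlapped, among them Oca2, Pcolce, Nfkbia, Tjp3, Gpx8 and Dynlrb2. No gene was called for a class difference that itself varied with genotype in edgeR's quasi-likelihood test (lowest adjusted p 0.474). Of the 15904 genes tested, 790 had an unadjusted p under 0.05. With 1 or 2 libraries per class and genotype, this test cannot show that such a variation is absent.

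Of 62 choroid plexus epithelial transcripts listed, all 62 were tested, 46 were lower in low-Ttr libraries and 0 were higher, against 0.446% and 0.0126% of all genes. The count was 41 with both libraries against their transgene label left out and 34 without 5xFAD 2. The median log2 fold change of the 62 was -2.08, and 61 of the 62 lay below 0, against 45.6% of all genes. Since these transcripts come from the same epithelium as the Ttr that chose the classes, their counts and values are a description and are given without p-values. In 48 of the 62, all 4 low-Ttr libraries lay below all 8 high-Ttr libraries, against 0.799% of all genes. The summed level of the 62 was 786 to 1017 CPM in low-Ttr libraries, against 1781 to 3289 CPM in high-Ttr libraries, with no overlap. Within genotypes, the log2 ratio of the mean sums was -1.28 in Kcnip3 KO-5xFAD, -1.97 in 5xFAD and -1.28 in WT.

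**Figure D2:**
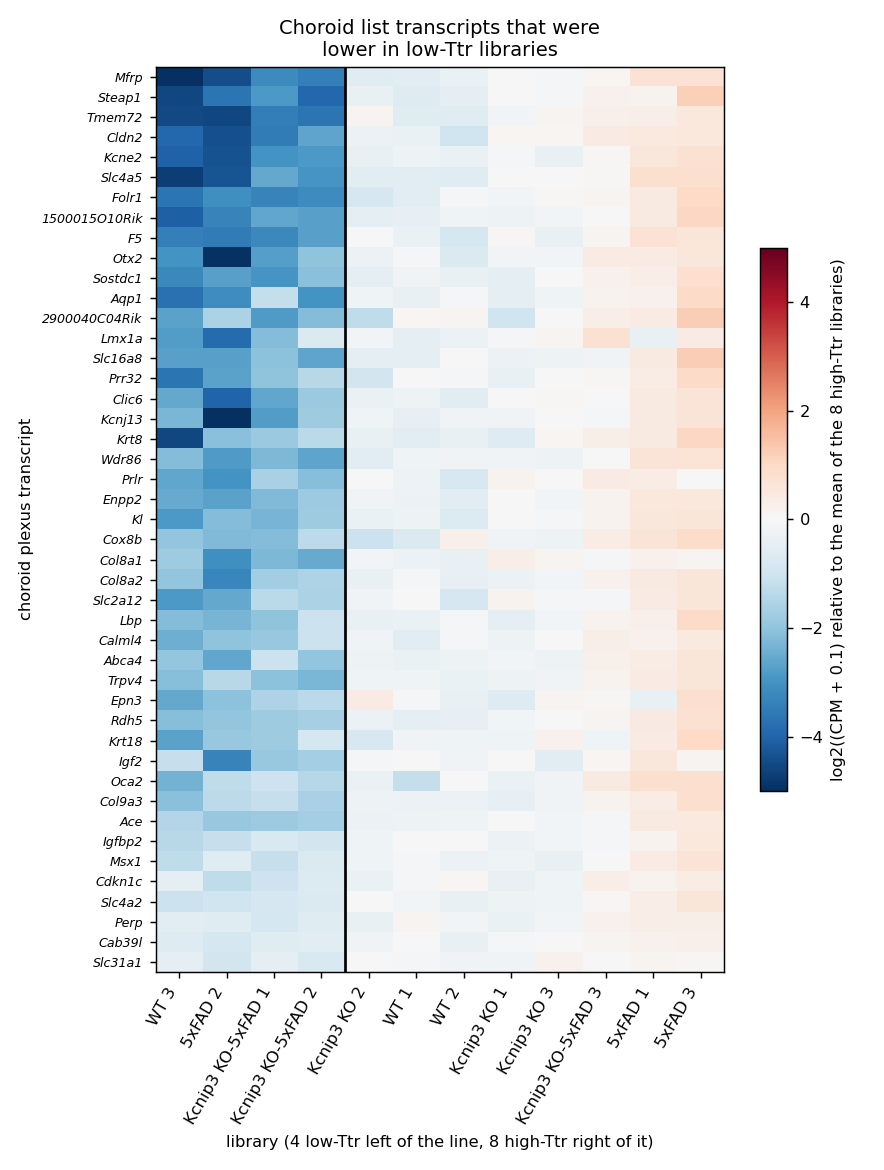
Level of 45 of the 46 called choroid transcripts in each library, as log2(CPM + 0.1) relative to the mean of the 8 high-Ttr libraries, with the 4 low-Ttr libraries left of the line and the transcripts ordered by fold change. Nearly every cell left of the line is blue, deepest for Mfrp, Steap1 and Tmem72 and palest near the bottom, as for Slc31a1 and Cab39l, and the columns of 5xFAD 1 and 5xFAD 3 are the reddest on the right.

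Transporters and channels carry the ions, water and nutrients that the epithelium moves between blood and cerebrospinal fluid. Of the 20 listed, 15 were lower, with a median log2 fold change of -2.41 over all 20. Tmem72 and Steap1 were the steepest, and Tmem72 encodes a membrane protein found in choroid plexus and kidney. In the order library labelled WT 3, 5xFAD 2, Kcnip3 KO-5xFAD 1 and library labelled Kcnip3 KO-5xFAD 2, Tmem72 had 0.742, 0.720, 1.66 and 1.44 CPM in low-Ttr libraries, against 12.6, 21.1 and 27.8 CPM as the lowest, median and highest of the high-Ttr libraries (log2 fold change -4.22 ± 0.20). Every low-Ttr value was thus far below every high-Ttr value. Steap1, a metalloreductase of the STEAP family, had 0.106, 0.288, 0.553 and 0.222 CPM in the same order, against 3.00, 4.62 and 10.97 CPM (-4.22 ± 0.39). All its low-Ttr values but that of Kcnip3 KO-5xFAD 1 lay under the level of 3 counts, which is 0.265 to 0.391 CPM, depending on the library. Folr1, the folate receptor that delivers folate into cerebrospinal fluid, had 2.12, 3.31, 2.66 and 3.11 CPM, against 15.5, 27.6 and 56.1 CPM (-3.55 ± 0.24). Neither had any overlap between the classes.

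The gene of the potassium channel subunit Kcne2, which partners apical potassium channels of the plexus, had 0.742, 0.576, 1.66 and 1.78 CPM in low-Ttr libraries, against 10.6, 12.5 and 23.2 CPM in high-Ttr libraries (-3.75 ± 0.27). Slc4a5, a sodium bicarbonate cotransporter of the apical membrane, had 0.424, 0.576, 2.21 and 1.66 CPM, against 8.81, 13.5 and 23.7 CPM (-3.74 ± 0.32). In both the libraries labelled WT 3 and 5xFAD 2 were the lowest. Aqp1, the apical water channel, had 1.48, 2.30, 9.07 and 2.55 CPM, against 14.7, 19.1 and 40.2 CPM (-2.92 ± 0.42), and Kcnip3 KO-5xFAD 1 held more of it than the other low-Ttr libraries. Kcnj13, an inwardly rectifying potassium channel, had 2.54, 0.288, 1.77 and 3.66 CPM, against 9.53, 11.6 and 19.9 CPM (-2.69 ± 0.41), and 5xFAD 2 was the lowest, under the level of 3 counts. Trpv4, a cation channel that responds to osmotic and mechanical stimuli, had 2.97, 5.04, 3.10 and 2.66 CPM, against 10.6, 11.7 and 20.4 CPM (-2.07 ± 0.15). The anion exchanger Slc4a2 and the copper importer Slc31a1, both expressed in many cell types, stayed closest to the high-Ttr level among the called transporters, at 52.1% and 63.4% of its mean.

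Secreted proteins, carriers and receptors were the group of 22 with 17 lower and a median log2 fold change of -2.10. Mfrp, a membrane frizzled-related protein best known from the retinal pigment epithelium, had 0.424, 1.15, 2.88 and 2.44 CPM in low-Ttr libraries, against 17.8, 26.2 and 44.6 CPM as the lowest, median and highest of the high-Ttr libraries (-4.27 ± 0.29). Its classes did not overlap. The coagulation factor gene F5 changed by -3.40 ± 0.25, and so did 1500015O10Rik, which encodes the secreted peptide known as augurin, at -3.40 ± 0.25. Sostdc1, a secreted BMP and Wnt antagonist, changed by -3.02 ± 0.24.

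Kl encodes klotho, the co-receptor of FGF23 that is also shed into cerebrospinal fluid, and it had 6.89, 11.5, 10.2 and 15.0 CPM in low-Ttr libraries, against 31.6, 50.5 and 78.7 CPM in high-Ttr libraries (-2.45 ± 0.16). Enpp2, the lysophospholipase autotaxin that oligodendrocytes also make, had 141, 125, 171 and 227 CPM, against 535, 750.3 and 1159 CPM (-2.46 ± 0.19). Prlr, the prolactin receptor, had 1.17, 0.864, 2.43 and 1.66 CPM, against 4.35, 7.78 and 10.2 CPM (-2.51 ± 0.25). The collagen gene Col9a3 changed by -1.76 ± 0.13, Ace, the angiotensin-converting enzyme, by -1.75 ± 0.16, and the IGF carrier Igfbp2 by -1.22 ± 0.13.

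Epithelial structure and transcription factors formed the group of 20 with 14 lower and a median of -2.03. Cldn2, the claudin of leaky epithelial tight junctions, had 0.636, 0.432, 0.885 and 1.66 CPM in low-Ttr libraries, against 5.41, 11.8 and 16.0 CPM in high-Ttr libraries (-3.83 ± 0.29). Otx2, the homeobox factor needed to form and keep the plexus, had 0.848, 0.144, 0.996 and 1.78 CPM, against 4.46, 6.77 and 10.97 CPM (-3.27 ± 0.35), and 5xFAD 2, the lowest, lay under the level of 3 counts (0.265 to 0.391 CPM, depending on the library, for counting error only). The homeobox gene Lmx1a changed by -2.75 ± 0.51 and Msx1 by -1.08 ± 0.14. Krt8 and Krt18, the paired keratins of simple epithelia, changed by -2.68 ± 0.37 and -2.00 ± 0.35. Calml4 and the uncharacterised 2900040C04Rik changed by -2.08 ± 0.22 and -2.79 ± 0.33. Cab39l, a scaffold of the STK kinases that is expressed widely, had 23.2, 19.9, 23.7 and 24.9 CPM, against 28.2, 36.3 and 43.0 CPM (-0.74 ± 0.12), so the classes were separate with a small gap.

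Among the lower choroid transcripts some lay close together in the genome, in GRCm38 coordinates of GENCODE M21. Kcne2 (chromosome 16, 92292389 to 92298129) and Clic6 (chromosome 16, 92485736 to 92541243) share a stretch of chromosome, as do Krt8 (chromosome 15, 101996698 to 102004482) and Krt18 (chromosome 15, 102028180 to 102032027). By these coordinates neither pair overlaps, and their closeness was not compared with that of other genes. Whether the counting used strand is not given in the sources used here, so reads of genes that do overlap others cannot be told apart.

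Members of the 3 groups that did not pass the test were 16. Slc26a11 was the only one above 0, at 7.85 to 9.93 CPM in low-Ttr and 5.77 to 9.52 CPM in high-Ttr libraries (0.20 ± 0.18). Slc29a4 and Pcp4l1 had 96.8% and 101% of the high-Ttr mean in low-Ttr libraries. Slc12a2, the sodium, potassium and chloride cotransporter NKCC1 that glia and other cells also use, had 25.01, 23.2, 29.2 and 29.0 CPM in low-Ttr libraries, against 24.9, 36.7 and 43.8 CPM in high-Ttr libraries (-0.48 ± 0.13), with overlap. Slc13a4, a sulfate transporter that meningeal fibroblasts share, had 20.98, 3.74, 11.5 and 20.3 CPM, against 15.3, 31.4 and 40.5 CPM (-1.45 ± 0.38), also with overlap. The serotonin receptor gene Htr2c, which hippocampal neurons also express, had 60.4% of the high-Ttr mean. Slco1a5 and Rbm47 had log2 fold changes of -2.62 and -2.29 at mean levels of 0.137 and 0.561 CPM in low-Ttr libraries, against 1.10 and 2.56 CPM in high-Ttr libraries.

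Mfrp and Tmem72 were among the steepest of their groups, and the 300 bases around their annotated starts, 250 before and 50 after, are shown for orientation, 5′ to 3′ on the gene's strand, from RefSeq on GRCm38.p6. The plus-strand Mfrp window is chr9:44101520-44101819 and the minus-strand Tmem72 window is chr6:116716709-116717008. Capitals mark GGATTA, the reverse complement of TAATCC, a core that OTX2 is known to bind, and both strands were searched.
Mfrp: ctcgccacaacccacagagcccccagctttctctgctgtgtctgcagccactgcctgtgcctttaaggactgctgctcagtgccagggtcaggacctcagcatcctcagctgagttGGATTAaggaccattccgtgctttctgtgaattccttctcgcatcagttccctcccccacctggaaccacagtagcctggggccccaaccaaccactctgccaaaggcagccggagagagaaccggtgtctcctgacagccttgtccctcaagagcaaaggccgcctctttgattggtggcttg
Tmem72: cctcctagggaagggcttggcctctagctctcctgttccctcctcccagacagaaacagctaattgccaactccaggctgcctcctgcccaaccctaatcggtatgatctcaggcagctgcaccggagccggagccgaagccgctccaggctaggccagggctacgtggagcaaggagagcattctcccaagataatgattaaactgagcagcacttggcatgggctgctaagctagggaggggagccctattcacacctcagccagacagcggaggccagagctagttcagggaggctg
The window of Mfrp held the motif 1 time and that of Tmem72 did not hold it. Only 35 of the 46 lower choroid transcripts were matched to a window, under 80%, so a comparison of shares is void. Of these, 3 held the motif (8.57%), as did 1935 of all 27025 windows of the same length (7.16%). A match is only a description of the letters.

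The choroid transcripts did not all fall as far as Ttr. Ttr itself set the classes, so its fall is a value of the rule and the comparison is a description only. The mean TMM-scaled level of Ttr in low-Ttr libraries was 250.1 ± 131 CPM, against 4618 ± 1894 CPM in high-Ttr libraries (SD, n = 4 and n = 8), which is 5.42%. The mean level of the 46 lower choroid transcripts in low-Ttr libraries was 20.3% of that in high-Ttr libraries at the median, and 5.69% at the lowest. It was under 10% for 8 of them, under 25% for 27 and over 50% for 7.

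Set against Ttr in the same library, transcripts fell into different patterns. Tmem72 had 3.499 to 8.76 counts per 1000 Ttr counts in low-Ttr libraries, against 3.19 to 7.31 in high-Ttr libraries, and Mfrp had 5.01 to 8.46, against 5.06 to 7.58. For both, the low-Ttr range covered nearly all of the high-Ttr range. Folr1 had 7.81 to 25.03 counts per 1000 Ttr counts, against 5.39 to 7.34, and Kcne2 had 2.80 to 8.76, against 2.41 to 3.72. Kl had 29.9 to 81.4, against 8.42 to 14.3, Enpp2 had 504 to 1661, against 133 to 245, and Cab39l had 67.2 to 274, against 4.92 to 11.3. The classes were separate for Folr1, Kl, Enpp2 and Cab39l and overlapped for Kcne2. The lowest low-Ttr levels were 0.424 CPM for Mfrp, 0.720 CPM for Tmem72 and 0.576 CPM for Kcne2, near the level of 3 counts (0.265 to 0.391 CPM). Counting error therefore widens the low-Ttr ranges of these genes. All these ratios share the Ttr counts that set the classes and were not tested.

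**Figure D3:**
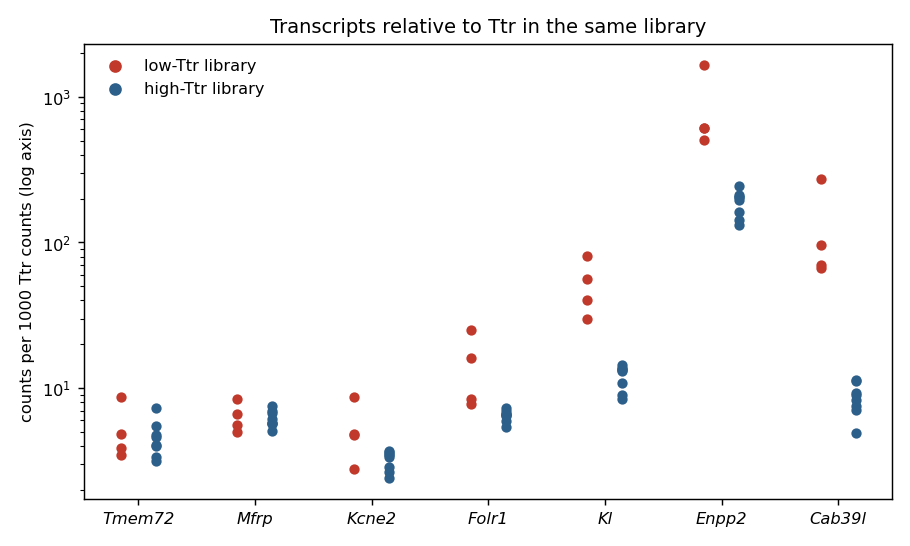
Counts per 1000 Ttr counts of the same library for 7 choroid transcripts, on a log axis, with the low-Ttr libraries left of the high-Ttr libraries for each gene. The classes lie at the same height for Tmem72 and Mfrp, and all low-Ttr libraries lie above all high-Ttr libraries for Folr1, Kl, Enpp2 and Cab39l.

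The libraries also differed within a class. Of the 46 lower choroid transcripts, the highest high-Ttr library was 5xFAD 3 for 36, and 5xFAD 1 and 5xFAD 3 were the highest pair for 36. These were also the 2 libraries with the most Ttr. Among the low-Ttr libraries, the lowest was 5xFAD 2 for 22 and the library labelled WT 3 for 21. The highest was the library labelled Kcnip3 KO-5xFAD 2 for 22 and Kcnip3 KO-5xFAD 1 for 13.

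Other cell types that border the plexus or the ventricle gave few calls. Of 26 listed ependymal and motile cilia genes, 22 were tested and 1 was lower, against 0.446% of all genes. The median log2 fold change was -0.54 and 21 of the 22 lay below 0. Of the 22, 10 had an unadjusted p under 0.05 in edgeR's quasi-likelihood test, against 5.23% of all genes. In 3 of the 22, all 4 low-Ttr libraries lay below all 8 high-Ttr libraries, against 0.799% of all genes. The summed list was lower in the low-Ttr libraries within each genotype that held both classes. Each class there held only 1 or 2 libraries, so such an order can arise by chance, and it was not tested. The lower one was Dynlrb2, a dynein light chain, with 0.848, 1.15, 2.54 and 2.55 CPM in low-Ttr libraries, against 2.29, 3.00 and 4.91 CPM in high-Ttr libraries (-1.37 ± 0.28, edgeR quasi-likelihood adjusted p = 0.0499). Its classes overlapped. Foxj1, the master regulator of motile cilia, had 10.4, 18.1, 14.9 and 19.1 CPM, against 15.6, 20.0 and 32.3 CPM, and was not called (-0.58 ± 0.16). The 4 untested members, Dnah12, Spag17, Dnaaf1 and Sntn, were each under 1 CPM on average in both classes.

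Of 24 meningeal and stromal fibroblast genes 1 was lower, against 0.446% of all genes, with a median log2 fold change of -0.63. The log2 fold change was below 0 in 23 of the 24, and 11 had an unadjusted p under 0.05, against 5.23% of all genes. Pcolce, an enhancer of collagen processing, had 10.6, 9.35, 11.9 and 17.8 CPM in low-Ttr libraries, against 13.7, 25.5 and 35.6 CPM in high-Ttr libraries (-1.27 ± 0.21, edgeR quasi-likelihood adjusted p = 0.0125). The adjusted p was 0.137 without the library labelled WT 3 and 0.179 without 5xFAD 2. The summed level of the list was 800.3 to 2021 CPM, against 1254 to 2913 CPM, and its lowest library was 5xFAD 2. Within each of the 3 genotypes that held both classes, every low-Ttr library had a lower sum than every high-Ttr one. Of 10 border macrophage genes 7 were tested and 0 were called, while all 7 lay below 0 (-1.15 to -0.28, median -0.73) and the summed list was likewise lower within all 3 genotypes. Among them were Mrc1 at 2.31 ± 1.29 CPM against 2.80 ± 1.33 CPM and Stab1 at 26.3 ± 1.40 CPM against 29.2 ± 4.85 CPM (SD, n = 4 and n = 8). The part of these cells in the choroid differences was not tested.

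Vessel and blood genes gave no call. Of 15 tested endothelial genes 0 were called (median -0.08), with Flt1 at 59.9 ± 5.09 CPM in low-Ttr libraries, against 59.7 ± 7.67 CPM in high-Ttr libraries, and Cldn5 at 49.99 ± 15.2 CPM against 52.6 ± 10.4 CPM. Of 12 mural cell genes 0 were called (median -0.13), with Vtn at 128 ± 12.98 CPM against 127 ± 17.6 CPM and Rgs5 at 89.5 ± 7.19 CPM against 81.4 ± 8.31 CPM. All 7 tested blood genes lay above 0 without a call (median 0.60). Hbb-bs, the adult beta-globin gene, had 92.1, 65.6, 78.0 and 126 CPM, against 38.5, 53.7 and 80.2 CPM (0.60 ± 0.24), with overlap.

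**Figure D4:**
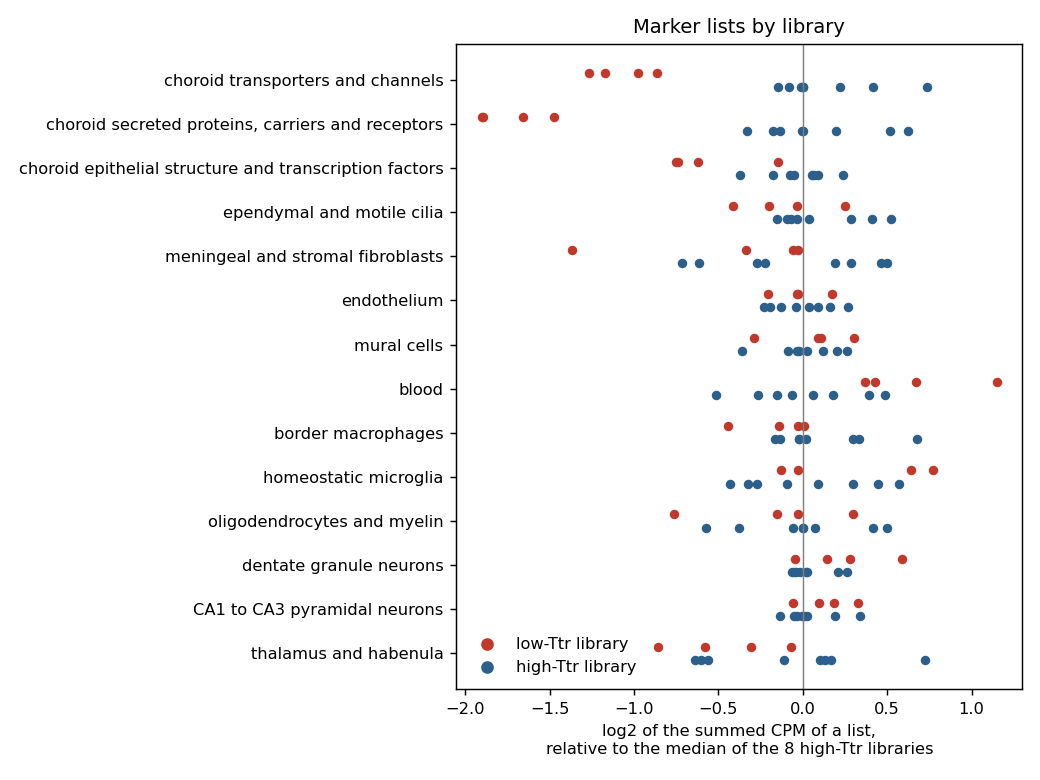
Summed CPM of marker lists in each library, as log2 relative to the median of the 8 high-Ttr libraries, with low-Ttr libraries in the upper row of each list. The 2 choroid lists of transporters and of secreted proteins are separate between the classes, with low-Ttr sums of 167 to 222 and 369 to 497 CPM against 363 to 671 and 1096 to 2126 CPM, while every other list overlaps.

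The glial and neuronal lists held no call either. They were homeostatic microglia (0 of 13, median 0.20, 11 above 0) and plaque-associated microglia (0 of 23, 0.22, 19 above 0). Interferon response gave 0 of 20 (-0.28, 19 below 0), reactive astrocytes 0 of 19 tested (-0.02, 10 below 0) and astrocyte identity 0 of 16 (0.01, 8 below 0). Oligodendrocyte and myelin genes gave 0 of 19 with all 19 below 0 (median -0.23), with Mbp, a myelin protein gene, at 3237 ± 1096 CPM in low-Ttr and 3478 ± 962 CPM in high-Ttr libraries. Dentate granule neurons (0 of 14, 0.10, 12 above 0) and CA1 to CA3 pyramidal neurons (0 of 18, 0.11, 13 above 0) lay near the median of all genes. Thalamus and habenula genes, from tissue that adjoins the hippocampus, gave 0 of 15 tested with a median of -0.68 and 13 below 0. Prkcd, a thalamic kinase gene, had 19.7, 27.2, 49.0 and 44.7 CPM in low-Ttr libraries, against 20.4, 66.4 and 165 CPM in high-Ttr libraries (-1.07 ± 0.69), so its high-Ttr libraries spread widely. Cortex and striatum (0 of 17, -0.11) and activity-regulated genes (0 of 28, 0.06) gave no call. In the retinoid and thyroid hormone list, which concerns the cargo of transthyretin, 1 of 19 was lower, against 0.446% of all genes (median -0.22), and it is already counted among the choroid transcripts.

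Of the 71 genes lower in low-Ttr libraries (0.446% of those tested), 23 were in none of the lists. They are named here after their values were seen. The smallest adjusted p among them belonged to Sema3b, a secreted semaphorin, with 4.77, 3.45, 5.09 and 5.11 CPM in low-Ttr libraries, against 11.4, 15.4 and 21.8 CPM in high-Ttr libraries (-1.91 ± 0.18, edgeR quasi-likelihood adjusted p = 4.32e-05). Drc7, a subunit of the complex that ties the dyneins of motile cilia together, had 3.81, 4.17, 4.43 and 6.55 CPM, against 8.57, 15.1 and 30.4 CPM (-2.09 ± 0.23, edgeR quasi-likelihood adjusted p = 0.000278). Neither overlapped, and both stayed called with the 2 libraries against their transgene label left out (edgeR adjusted p = 0.000923 for Sema3b and 0.000482 for Drc7). With 5xFAD 2 left out as well, which leaves 1 low-Ttr library, they were 0.0840 and 0.0672.

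Junction and basement membrane genes were among the 23. Cgnl1, a paralogue of cingulin at tight junctions, had 16.3, 12.8, 20.0 and 13.5 CPM in low-Ttr libraries, against 25.8, 33.2 and 37.8 CPM in high-Ttr libraries (-1.14 ± 0.15, edgeR quasi-likelihood adjusted p = 0.00189). Cdh3, which encodes P-cadherin, changed by -2.95 ± 0.51 and Tjp3, which encodes ZO-3, by -1.30 ± 0.25. The basement membrane collagens Col4a4 and Col18a1 changed by -1.87 ± 0.30 and -0.70 ± 0.14, and the matrix gene Frem1 by -1.03 ± 0.20. Trpm3, a cation channel gene, had 37.3, 27.8, 38.5 and 43.7 CPM, against 53.2, 71.8 and 92.4 CPM (-0.96 ± 0.17, edgeR quasi-likelihood adjusted p = 0.0293), without overlap.

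The other lower genes with secreted or membrane products were Wfdc2, a secreted protein of epithelia (-3.28 ± 0.50), Scara5, a ferritin receptor (-3.27 ± 0.61), Large2, a glycosyltransferase that acts on dystroglycan (-2.69 ± 0.34), Tmem184a (-2.26 ± 0.39), the secreted phospholipase Pla2g5 (-1.55 ± 0.24), the protease Fap (-1.45 ± 0.25), Gpx8, a peroxidase of the endoplasmic reticulum (-1.11 ± 0.22), Scube3 (-0.84 ± 0.16) and Emb, which encodes embigin, a chaperone of monocarboxylate transporters (-0.64 ± 0.12). Gm44250, a predicted gene, changed by -1.35 ± 0.21 and Eps8l2, an actin regulator, by -1.01 ± 0.19. Scara5 had 0 CPM in the library labelled WT 3 and in 5xFAD 2, and Cdh3 had 0 CPM in 5xFAD 2. For 3 genes the low-Ttr libraries held only a few counts, so a fitted fold would depend on the prior. Tmprss11a had 2 counts in all low-Ttr libraries, against 90 in high-Ttr libraries, a depth-corrected ratio of high over low of 21.4 with an exact 95% Poisson interval of 5.77 to 179.7. Defb11 had 2 counts against 119 (28.4, interval 7.68 to 236.8), and Dpep1 had 3 against 92 (14.6, interval 4.85 to 72.1).

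Of these 23 genes, Sema3b, Drc7, Large2 and Cgnl1 stayed called whichever single library was left out. Leaving out 5xFAD 2 or Kcnip3 KO-5xFAD 3 each ended the calls of Cdh3, Col4a4, Gm44250, Pla2g5 and Tmprss11a, and these libraries or the one labelled WT 3 that of Dpep1. That of Wfdc2 ended without Kcnip3 KO-5xFAD 3, and that of Tmem184a without 5xFAD 2 or the library labelled WT 3. Fap and Defb11 lost their calls without any 1 of 4 libraries, Eps8l2 of 5, Trpm3 of 6, Emb of 7, Scara5, Scube3 and Tjp3 of 9, and Col18a1, Frem1 and Gpx8 of 10. Dynlrb2 of the ependymal list likewise lost its call without any 1 of 11.

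**Figure D5:**
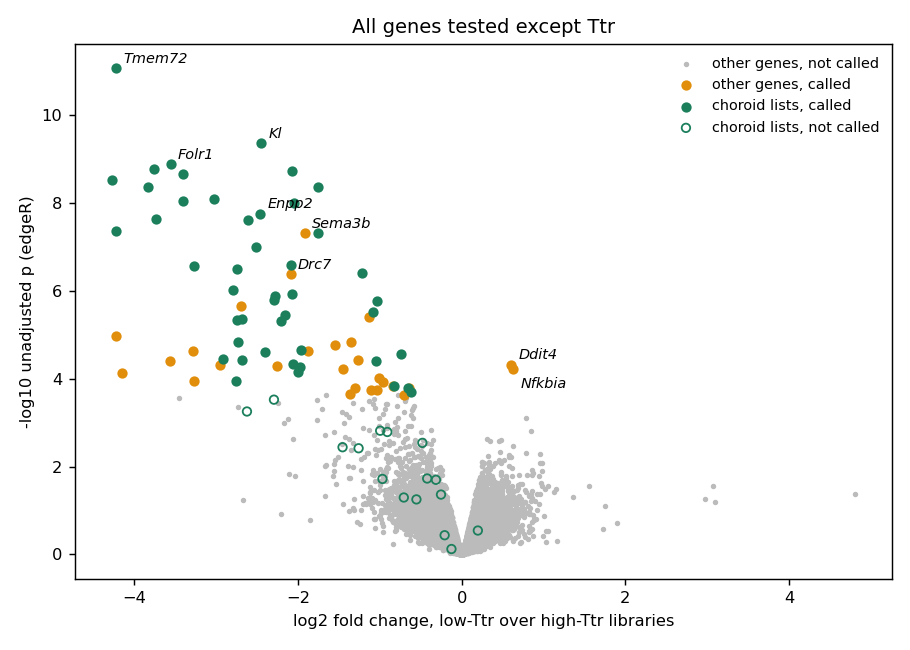
Each of the 15904 genes tested, with its log2 fold change of low-Ttr over high-Ttr libraries on the x axis and -log10 of the unadjusted edgeR p on the y axis. The calls lie almost all on the left, where 46 are choroid transcripts and 25 are others, and the 2 on the right are Ddit4 and Nfkbia.

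Only 2 genes were higher in low-Ttr libraries, 0.0126% of those tested. Ddit4, a stress-induced inhibitor of mTORC1 signalling, had 100.03, 116, 88.4 and 111 CPM in low-Ttr libraries, against 58.7, 68.1 and 80.2 CPM in high-Ttr libraries (0.61 ± 0.10, edgeR quasi-likelihood adjusted p = 0.0147). All 4 low-Ttr values lay above all 8 high-Ttr values, as in 0.214% of all genes. Nfkbia, the inhibitor that holds NF-kappa-B in the cytoplasm, had 42.6, 59.6, 36.0 and 46.3 CPM, against 25.8, 30.8 and 39.1 CPM (0.63 ± 0.11, edgeR quasi-likelihood adjusted p = 0.0165). Kcnip3 KO-5xFAD 1 overlapped with the high-Ttr libraries. Neither call was kept without 5xFAD 2 (edgeR adjusted p = 0.206 for Ddit4 and 0.298 for Nfkbia), the library labelled WT 3 (0.0649 and 0.0603), Kcnip3 KO-5xFAD 3 (0.174 and 0.180), or both libraries against their transgene labels (0.146 and 0.129). Ddit4 was also lost without WT 1 (0.0594) and Nfkbia without 5xFAD 3 (0.0661). Thy1 was at its transgene level in 3 of the 4 low-Ttr and 3 of the 8 high-Ttr libraries. With the knockout label and Thy1 class in place of genotype, Ddit4 stayed called (0.61, edgeR adjusted p = 0.0109) and Nfkbia did not (0.55, edgeR adjusted p = 0.173).

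Low-Ttr libraries were 2 of 3 in Kcnip3 KO-5xFAD, 1 of 3 in 5xFAD, 0 of 3 in Kcnip3 KO and 1 of 3 in WT. By label, they were thus equally many in 5xFAD and WT, but not in Kcnip3 KO-5xFAD and 5xFAD or in Kcnip3 KO and WT. The only low-Ttr library labelled WT was WT 3, where Thy1 was at 2322, against its label. The genotype comparisons below were not fitted with both libraries against their transgene label left out. Without the class as a term, the median log2 fold change of the 46 lower choroid transcripts was -0.95 in Kcnip3 KO-5xFAD over 5xFAD, 0.83 in 5xFAD over WT and 0.52 in Kcnip3 KO over WT. With the class as a term the medians were -0.13, 0.76 and 0.03. The 3 comparisons share libraries, so they are not independent of each other, and the 46 transcripts were chosen on the same libraries. In edgeR's quasi-likelihood test 0 of the 46 were called in any of the 3 comparisons without the class term, against 0.0692% of all genes in Kcnip3 KO-5xFAD over 5xFAD, 3.48% in 5xFAD over WT and 0.0503% in Kcnip3 KO over WT.

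With the class term, 11 of the 46 were called higher in 5xFAD than in WT, against 1.65% of all genes, and 0 were called in Kcnip3 KO-5xFAD against 5xFAD and in Kcnip3 KO against WT, where 0.0692% and 0.0503% of all genes were. They were Slc4a5 (1.30), Mfrp (1.16), F5 (1.10), 1500015O10Rik (1.02), Folr1 (1.01), Kl (0.99), Tmem72 (0.94), Col9a3 (0.88), Rdh5 (0.85), Trpv4 (0.79) and Msx1 (0.73), each a log2 fold change of 5xFAD over WT, with edgeR adjusted p-values of 0.0173 to 0.0475. The count fell to 0 without any 1 of 5xFAD 2, 5xFAD 3, WT 1 or the library labelled WT 3. The 46 were chosen by their calls in the same fit and libraries, so setting the 11 against all genes is a description only. The class term holds only low and high, so Ttr differences within a class remain. On the scale that set the classes, Ttr was 5940 in 5xFAD 1 and 8519 in 5xFAD 3. It was 3272 in WT 1 and 3764 in WT 2. Whether the 11 calls go with genotype or with this difference in Ttr was not tested. Over all genes, 5xFAD against WT gave 431 calls with the class term (263 higher, 168 lower) and 553 without it (295 higher, 258 lower). Kcnip3 KO against WT gave 8 and 8, and Kcnip3 KO-5xFAD against 5xFAD gave 11 and 11. With the term, leaving out 1 library at a time gave 0 to 1766 calls in 5xFAD against WT, among them 1 without the library labelled WT 3. Why the number of calls in 5xFAD against WT changed with the term was not tested.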

How the data were processed

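The deposited table holds raw counts of reads per gene for 55385 genes, made by the authors with HISAT2 2.1.0 and featureCounts on mm10, per the submitters' processing notes, which also name FastQC 0.11.9, R 4.2.1 and edgeR 3.38.4. A second deposited table holds log2 TPM of 16120 genes and served as an alternative only. No source used here gives the annotation release or the strand setting of the counting. Symbols and positions came from GENCODE M21 on GRCm38, which named 55144 genes.

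From the counts, Ttr as a share of the library total set the class. The Ttr row was then left out, and edgeR 4.0.16 in R 4.3.3 fitted genotype and class in all 12 libraries, with TMM scaling, filterByExpr by genotype, robust quasi-likelihood dispersions (common biological coefficient of variation 0.138, 7 residual degrees of freedom) and Benjamini-Hochberg adjustment over 15904 genes. On simulated data with 200 changed genes in this comparison, run on 15680 genes, the share recovered was 47.8% at 1.5-fold, 80.6% at 2-fold and 98.5% at 4-fold, and 4.43% of 158 calls were false. The ratios of few counts have exact Poisson intervals, which cover counting error only.

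The Ttr classes, the 22 lists (386 genes, of which Cyr61 was not matched) and the rule for named genes were chosen with earlier results of these data known. The rule took Ttr, up to 10 called genes per direction with the largest fold change, no overlap and a mean of at least 1 CPM, and up to 4 called members of each list by smallest p, or, where none was called, the 2 with the highest level. A planned correlation of each gene with Ttr is not given, since the libraries form 2 separate clusters of Ttr. Alternatives changed the scaling, filter, tool (DESeq2 1.42.0, limma 3.58.1), table, terms and libraries. Some results the named-gene rule would give are not reported here.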

Additional observations from a re-analysis of the deposited data

Results flagged for a closer look

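In 100 groups examined (the named genes in each Ttr class), 5 held a library far from the others by Dixon's criterion, which chance gives in about 1 group in 20. Steap1 was at 10.97 CPM in 5xFAD 3, the highest of the 8 high-Ttr libraries. Among the 4 low-Ttr libraries, Hba-a1 was at 59.49 CPM in the library labelled Kcnip3 KO-5xFAD 2, above the other 3. In the library labelled WT 3, C1ql2, a gene of dentate granule neurons, was at 21.83 CPM, below the other 3 low-Ttr libraries, and Lamp5, a gene of cortical interneurons, at 124 CPM, above them. Nptx1, a neuronal pentraxin, was at 680.3 CPM in Kcnip3 KO 3, the highest of the high-Ttr libraries.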

How the results depend on the processing

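With DESeq2 size factors, library size only, limma-voom, the deposited log2 TPM, DESeq2, a filter of at least 50 counts in 3 libraries, class alone, Thy1 in place of the transgene label, or log2 Ttr as a continuous term, 50 to 103 genes were lower and 2 higher in low-Ttr libraries, against 71 and 2. The 2 did not include Nfkbia with class alone (edgeR adjusted p = 0.138) or Thy1 (0.173). With no filter 243 were lower and 41 higher, and of the other lists' members 46 were called, against 2. That last count was 4 with DESeq2 and log2 TPM, and 1 with size factors, 50 counts, voom, class alone and Thy1. Without both libraries against their transgene label 1 gene was higher. An alternative chosen after seeing the data also left out 5xFAD 2, leaving 1 low-Ttr library, assumed to vary like the other libraries, and gave 21 lower, 6 higher, 20 choroid members and 0 members of other lists. Leaving out 1 library at a time gave 39 to 72 lower, 0 to 9 higher, 34 to 46 choroid members and 0 to 3 members of other lists. It gave 0 to 1766 calls in 5xFAD against WT (0 without 5xFAD 2 or 5xFAD 3, 1 without the library labelled WT 3, 2 without WT 1), 5 to 14 in Kcnip3 KO against WT and 3 to 15 in Kcnip3 KO-5xFAD against 5xFAD. The cause was not tested.

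Deviations of same-numbered libraries of different genotypes had r from -0.337 to 0.261 in 18 pairs, 7 over 0.1, against a median of 0.0167 in other pairs. With 3 libraries per genotype, these values cannot show whether the numbers pair libraries. With the replicate block 48 genes were lower, 2 higher, 38 choroid members lower and 1 member of other lists called, and 5xFAD against WT gave 1094 calls. The 2 higher genes were then not Ddit4 and Nfkbia, whose edgeR adjusted p was 0.0661 and 0.0794.

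No called gene named here changed sign. Of uncalled ones, some did, and the following log2 fold changes are on the other side of 0. With class alone they were Arc 0.0460, Nptx1 -0.0113, Stat2 0.0914 and Vtn 0.00824. With the replicate block they were Arc 0.0419, Glul 0.0123 and Stat2 0.0249. With Thy1 they were Arc 0.353, C4b -0.172 and Ctsb -0.0344. Without both libraries against their label they were Calb1 -0.199, Cldn5 0.0354 and Stat2 0.0434, and without 5xFAD 2 too, Arc 0.62, Calb1 -0.73 and Stat2 0.36. Others were Ctsb -0.0130 and Flt1 -0.0115 with log2 TPM, Flt1 -0.00836 with library size, and Glul 0.00337 with voom and 0.000285 with continuous Ttr. Leaving out 1 library at a time gave Apoe -0.0854 to 0.20, Arc -0.55 to 0.33, C1ql2 -0.34 to 0.88, C4b -0.18 to 0.52, Calb1 -0.0825 to 0.32, Cldn5 -0.36 to 0.0972, Ctsb -0.0247 to 0.16, Flt1 -0.0737 to 0.14, Glul -0.0563 to 0.0596, Mpped1 -0.0988 to 0.0778, Rgs5 -0.0534 to 0.20 and Stat2 -0.20 to 0.0786.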

Other observations

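The blood list stood highest in low-Ttr libraries, at a summed level of 141 to 243 CPM, against 77 to 153 CPM in high-Ttr libraries, with overlap. It gave no call in edgeR's quasi-likelihood test, where 3 of its 7 tested genes had an unadjusted p under 0.05, against 5.23% of all genes. Within each of the 3 genotypes that held both classes, every low-Ttr library had a higher blood sum than every high-Ttr one. Each class there held only 1 or 2 libraries, and this order was not tested. Hba-a1, an adult alpha-globin gene, had 33.4, 36.4, 31.9 and 59.5 CPM in the libraries labelled WT 3, 5xFAD 2, Kcnip3 KO-5xFAD 1 and Kcnip3 KO-5xFAD 2, against 14.3, 26.7 and 33.4 CPM as the lowest, median and highest of the high-Ttr libraries.

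Among fibroblast genes, 5xFAD 2 stood apart from the other low-Ttr libraries. Aldh1a2, a retinoic acid synthesising enzyme of the meninges, had 3.02 CPM there, against 15.0, 8.19 and 12.9 CPM in the library labelled WT 3, Kcnip3 KO-5xFAD 1 and the library labelled Kcnip3 KO-5xFAD 2. Crabp2, a carrier of retinoic acid, had 1.01 CPM there, against 5.09, 4.76 and 5.77 CPM. In high-Ttr libraries Aldh1a2 ran from 8.61 to 21.5 CPM and Crabp2 from 2.63 to 9.20 CPM, and neither gene was called between the classes.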
